A study of Mus musculus with 42 samples.

Results

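Nonproductive rearrangements of the T-cell receptor beta (TCRβ) gene are described here in 5 libraries of sorted mouse T cells. A row of a clonotype table is one CDR3 nucleotide sequence with its V, D and J segment names and its read count, where the CDR3 is the stretch from the end of the V segment to the start of the J segment that meets the antigen. Rows were taken as nonproductive where the translated CDR3 held a stop codon or a frame mark and the sequence was at most 90 bases long. They numbered 2580 of 31576 rows in all, and 27100 productive rows under the same length cap served as the comparison within each file. Of the nonproductive rows, 2358 were out of frame and 222 were in frame with a stop codon.

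The series concerns NIK, the NF-κB-inducing kinase, in the thymic epithelium. Foxn1-Cre, which is active in thymic epithelial cells, was combined with 1 floxed NIK allele in the mice called WT (Foxn1Cre x NIKfl/wt) and with 2 floxed alleles in the mice called KO (Foxn1Cre x NIKfl/fl), so all mice carried Cre and at least 1 floxed allele. Of 42 samples in 14 groups, 5 libraries were analysed: CD8 T cells from the spleens of mouse 614 (WT) and mouse 617 (KO), CD4 T cells from the spleen of mouse 597 (KO) and from the lung of mouse 617 (KO), and regulatory T cells (Tregs) from the thymus of mouse 618 (KO). CD8 and CD4 cells were sorted as CD25- and CD62L+, and Tregs as CD4+ with high CD25. No age or strain is used here. Each group has 1 library, so intervals cover counting error only, and genotype, lineage or organ cannot be told apart from the mouse and the library in any difference between libraries. The files hold β chains alone, so the genotype and the sorted cell type could not be checked against marker genes.

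A T cell assembles its β chain by joining a V, a D and a J segment, with bases trimmed from the segment ends and others inserted without a template by terminal transferase. A join that loses the reading frame gives no protein, and the cell can then rearrange its other chromosome. The failed join stays in the genome of the mature cell as a passenger that was never tested for pairing, for MHC binding or for tolerance, which is why such joins are read as a record of the repertoire before selection. Transcripts with a premature stop are also degraded by nonsense-mediated decay, so RNA libraries hold fewer of them than DNA would.

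The sequences below show what the rows look like. They are, for each library, the most-read nonproductive row of regular form that has a D listed, is no possible copy (as defined next) and occurs in that library alone. Bases in capitals lie between the listed segment ends and so count as inserted.

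WT spleen CD8, TRBV14-TRBD2-TRBJ2-1, 18 reads: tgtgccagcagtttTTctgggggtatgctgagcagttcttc
KO spleen CD8, TRBV1-TRBD1-TRBJ1-1, 208 reads: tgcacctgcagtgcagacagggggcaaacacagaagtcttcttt
KO spleen CD4, TRBV4-TRBD2-TRBJ2-5, 77 reads: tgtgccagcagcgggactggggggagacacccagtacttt
KO lung CD4, TRBV1-TRBD1-TRBJ1-1, 119 reads: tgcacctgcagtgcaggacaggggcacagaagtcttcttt
KO thymus Treg, TRBV13-3-TRBD2-TRBJ2-4, 93 reads: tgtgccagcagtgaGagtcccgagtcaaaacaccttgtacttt

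Not every nonproductive row need be a rearrangement of its own. The next pair of rows from the Treg library differs by 1 base in the run of G given in capitals, and the first has 21 reads where the second, a productive row, has 231.

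TRBV16-TRBJ2-7, run of 9 G: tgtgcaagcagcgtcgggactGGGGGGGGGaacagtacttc
TRBV16-TRBJ2-7, run of 10 G: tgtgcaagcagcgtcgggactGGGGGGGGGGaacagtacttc

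Rows 1 base away from a row with at least 10 times their reads in the same library are called possible copies. They made up 19.4% (95% Clopper-Pearson interval 17.9 to 21.0) of the nonproductive and 6.94% (6.64 to 7.25) of the productive rows. The share was 45.5% among rows with an in-frame stop and 16.9% among out-of-frame rows, of which 252 lacked a base, 98 had an extra base and 49 had a changed base. Their part in each result was not tested beyond the values given without them.

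Nonproductive rows were 7.02% (6.65 to 7.41) of the rows in the WT spleen CD8 library. The KO spleen gave 10.4% (9.26 to 11.5) for CD8 and 11.1% (9.65 to 12.6) for CD4 cells, the KO lung 10.4% (9.38 to 11.4) and the KO thymus Tregs 12.2% (11.2 to 13.3). The WT library lay below the 4 KO libraries, and the intervals did not overlap. It also differed in depth per row: the median productive row had 6 reads there and 8, 27, 10 and 33 reads in the KO libraries in the order above. Nonproductive rows were read less than productive ones in every library, with medians of 1, 2, 4, 2 and 7 reads. Rows of a single read made up 55.6% of the nonproductive and 15.7% of the productive rows in WT CD8, and 31.0% and 10.1% in Tregs. Among rows of at least 2 reads the nonproductive share was 3.82% in WT CD8 and 6.79% to 9.65% in the KO libraries. Total reads ran from 98655 to 205882 per library, and nonproductive rows held 1.58% to 3.79% of the reads of rows up to 90 bases.

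**Figure D1:**
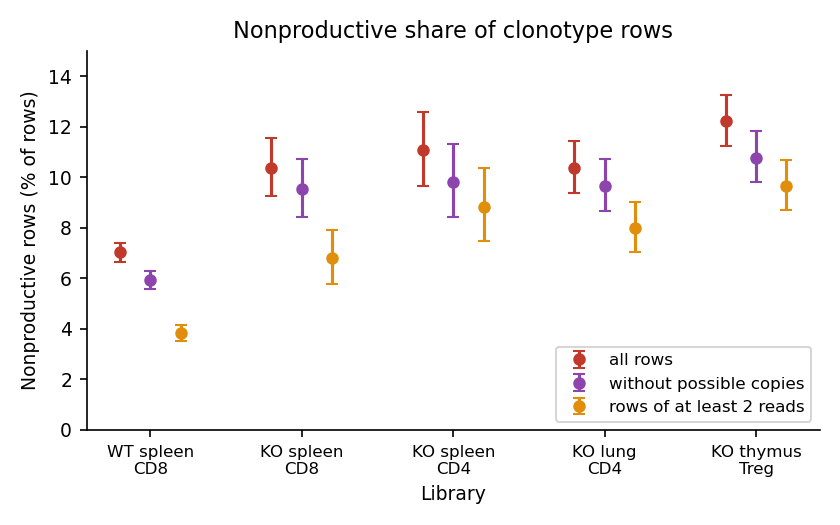
Nonproductive rows as a percentage of all rows up to 90 bases (vertical axis) in each of the 5 libraries (horizontal axis), for all rows, without possible copies and for rows of at least 2 reads. Points are shares and bars are 95% Clopper-Pearson intervals; the WT library is the lowest in each of the 3 sets, at 7.02%, 5.93% and 3.82%.

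Among V segments, those with the largest nonproductive excess were TRBV10, TRBV24, TRBV4, TRBV30 and TRBV22, and those with the largest deficit were TRBV3, TRBV29, TRBV13-2, TRBV12-2, TRBV20 and TRBV13-3. A segment was called where the ratio of its share of nonproductive rows to its share of productive rows, pooled over libraries by the Mantel-Haenszel method, was at most 0.8, or at least the reciprocal of 0.8, and its 95% interval left out 1. Of 21 segments with at least 1% of rows, 11 were called (52.4%), 5 higher (23.8%) and 6 lower (28.6%). All 11 kept their call without possible copies, and 9 did with rows of at least 2 reads. A ratio above 1 means that the segment's joins made up less of the productive than of the nonproductive rows. WT spleen CD8 holds most of the rows and so weighs most in a pooled ratio.

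TRBV24, on chromosome 6 at 41218091 to 41218557 (mm10), held 7.14% of nonproductive and 0.47% of productive rows in KO spleen CD8, and 4.16% and 0.27% in WT spleen CD8. In KO spleen CD4 the shares were 4.95% and 1.29%, in KO lung CD4 4.93% and 1.05%, and in Tregs 7.30% and 1.04%. The pooled ratio was 8.42 (6.71 to 10.6), and the nonproductive share was above the productive one in all 5 libraries. Rows under this name were of separate kinds. Those whose CDR3 began Cys-Ala-Trp, a start that was spread over 13 listed V segments, were nonproductive in 20 of 122 cases, or 16.4% (10.3 to 24.2). The other TRBV24 rows were nonproductive in 116 of 161 cases, or 72.0% (64.4 to 78.8), against 8.69% (8.37 to 9.02) of all rows. The share was 74.1% in WT CD8, 69.0% in KO CD8, 63.6% in KO spleen CD4, 65.2% in KO lung CD4 and 77.5% in Tregs, so each library showed it. With no preference for frame, 2 of 3 joins fall out of frame. Alleles of this segment that make no protein are known in laboratory mice. The strain was not given in the sources used here, and whether these mice carry such an allele was not tested. Of the 116 rows, 113 were out of frame and 3 held an in-frame stop, and 6.03% were possible copies. The most-read ones, from Tregs, had 92 and 48 reads, and capitals mark the listed D segment.

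TRBV24-TRBD2-TRBJ2-5, 92 reads: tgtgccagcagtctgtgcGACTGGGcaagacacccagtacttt
TRBV24-TRBD2-TRBJ2-4, 48 reads: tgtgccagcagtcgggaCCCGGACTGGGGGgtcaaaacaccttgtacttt

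TRBV4, at 41059443 to 41059886 on chromosome 6, held 9.79% of nonproductive and 2.61% of productive rows in WT CD8, 4.76% and 2.12% in KO CD8, 8.42% and 2.65% in KO spleen CD4, 7.67% and 2.31% in KO lung CD4, and 11.4% and 2.71% in Tregs. The pooled ratio was 3.60 (3.12 to 4.15), higher in 5 of 5 libraries. The longest stretch listed as the V part in at least 5 of its rows, outside the Cys-Ala-Trp starts, holds a TAA stop codon at CDR3 bases 13 to 15, shown in capitals with an in-frame and an out-of-frame row that keep it.

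TRBV4, longest listed V part: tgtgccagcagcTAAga
TRBV4-TRBJ2-4, in frame, KO thymus Treg, 77 reads: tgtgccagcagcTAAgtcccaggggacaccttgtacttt
TRBV4-TRBJ2-7, out of frame, KO spleen CD8, 32 reads: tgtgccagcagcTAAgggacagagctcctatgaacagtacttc

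A TRBV4 join that keeps these bases is nonproductive whatever follows. Of the 235 nonproductive TRBV4 rows, 89 began with them, 25 in frame and 64 out of frame, and none of the 689 productive rows did, as the definition of the set requires. The other 146 nonproductive TRBV4 rows lacked that start. TRBV4 gave 26 of the 72 in-frame stop rows whose stop lay in the V part; stops lay in the J part in 79 rows and between or across the segments in 71. By codon, 96 of the 222 stops were TAG, 78 TGA and 48 TAA.

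TRBV30, TRBV22 and TRBV10 make up the rest of the higher group. TRBV30 had a ratio of 2.11 (1.40 to 3.17), higher in 5 of 5 libraries, from 28 nonproductive rows, and one of 1.42 over regular CDR3s, where it was not called. TRBV22, annotated as a pseudogene, had a ratio of 1.97 (1.63 to 2.38), and 593 of its rows began Cys-Ala-Trp. As this start stood under many V names, the V name of such rows may be wrong, which was not tested. The TRBV22 ratio without WT spleen CD8 was 1.32. Without the rows of that start it was 7.25 (4.66 to 11.3), and 34 of the 79 TRBV22 rows left, or 43.0%, were nonproductive. Over all segments, rows with that start had a ratio of 1.93 (1.67 to 2.22), from 206 nonproductive and 972 productive rows, but libraries differed: it was 3.95 in WT CD8, 2.56 in KO CD8, 1.13 in KO spleen CD4, 0.914 in KO lung CD4 and 1.59 in Tregs. TRBV10, also a pseudogene in the annotation, had 20 nonproductive and 13 productive rows and a ratio of 13.3 (6.68 to 26.4). A stretch of 20 bases was shared by 26 of these 33 rows across 10 J segments, and it stood in 76 nonproductive and 36 productive rows under 15 V names, 2.95% of all nonproductive and 0.133% of all productive rows. The V name of such rows, and with it the TRBV10 ratio, is uncertain, and where the stretch comes from was not tested. Over all pseudogene-annotated V segments together, TRBV22 with its Cys-Ala-Trp rows among them, the ratio was 1.29 (1.13 to 1.49), higher in 5 of 5 libraries. Of those with few rows, TRBV27 had 7 nonproductive and no productive rows, TRBV28 had 11 and 48, TRBV8 had 6 and 12, TRBV25 had 2 and 5, and TRBV18 had 1 productive row.

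At the other end, TRBV3 held 2.85% of nonproductive and 5.85% of productive rows in WT CD8, 1.36% and 5.42% in KO CD8, 3.47% and 8.37% in KO spleen CD4, 3.29% and 9.66% in KO lung CD4, and 3.25% and 9.88% in Tregs. Its pooled ratio was 0.394 (0.314 to 0.495), and the nonproductive share was the lower one in each of the 5 libraries. TRBV13-2, the main V segment of mouse natural killer T cells, held 4.95% to 6.09% of nonproductive rows over the libraries and 9.09% to 10.2% of productive rows, with a ratio of 0.599 (0.509 to 0.705). Those ranges did not overlap. TRBV29 is a pseudogene in the annotation, yet only 41 of its 1098 rows, or 3.73% (2.69 to 5.03), were nonproductive, and its ratio was 0.455 (0.334 to 0.621). Its call was lost without WT CD8, at a ratio of 0.617. TRBV12-2 had a ratio of 0.680 (0.574 to 0.805), lower in 5 of 5 libraries. TRBV20, at 0.767 (0.630 to 0.934), and TRBV13-3, at 0.796 (0.661 to 0.958), were lower in 4 of 5 libraries each. With at least 2 reads TRBV20 had a ratio of 0.797 and TRBV13-3 one of 0.902, and neither was called. TRBV20 was also not called without the Treg library (0.841), nor TRBV13-3 without WT CD8 (0.947).

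**Figure D2:**
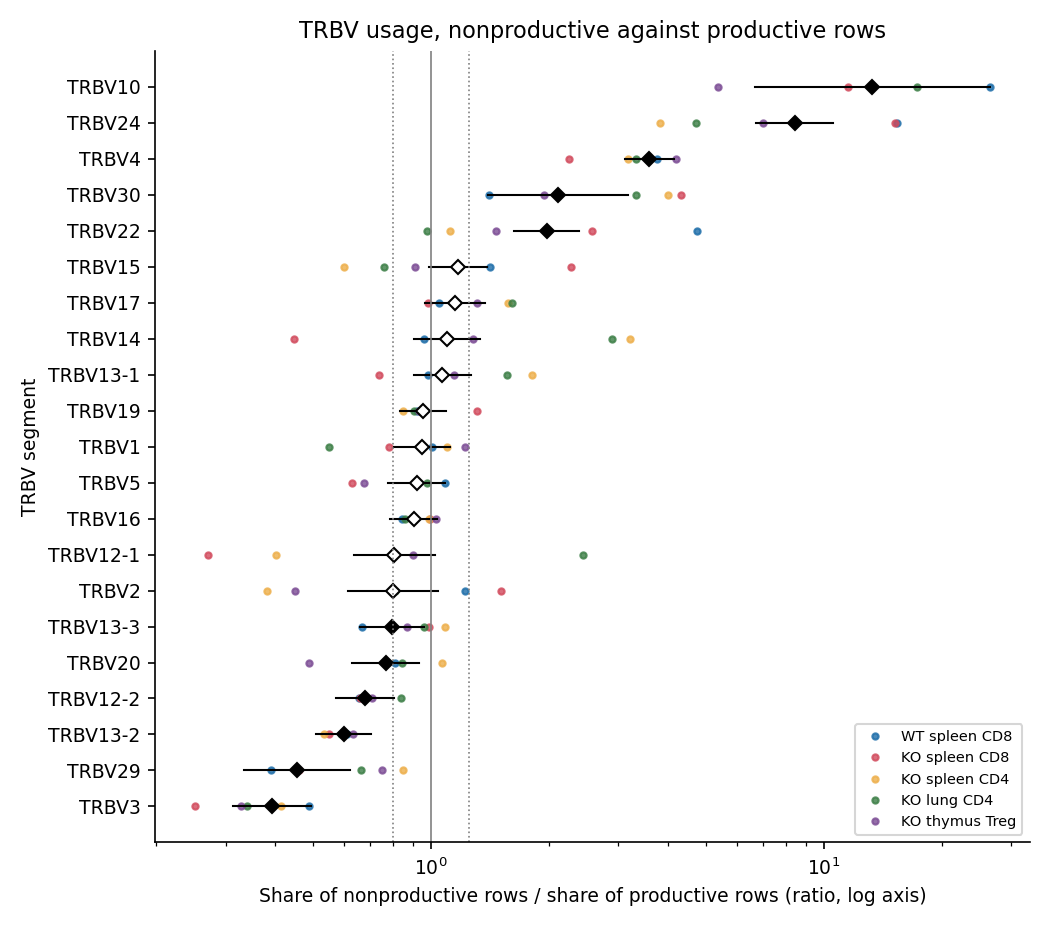
Ratio of the share of nonproductive rows to the share of productive rows (horizontal, log axis) for the 21 TRBV segments tested (vertical). Diamonds are Mantel-Haenszel ratios with 95% intervals, filled where called; coloured points are single libraries with a ratio above 0, and dotted lines mark 0.8 and its reciprocal. TRBV24 and TRBV4 lie above the upper line and TRBV3 and TRBV13-2 below the lower one in every library.

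Superantigens of endogenous retroviruses delete developing T cells by binding particular β chains. The 10 segments listed for such chains held 46.2% of nonproductive and 51.9% of productive rows in WT CD8, 57.1% and 51.7% in KO CD8, 38.6% and 40.5% in KO spleen CD4, 44.4% and 41.8% in KO lung CD4, and 45.8% and 42.4% in Tregs. The pooled ratio was 0.973 (0.932 to 1.02), but libraries differed in direction: it was 0.891 (0.837 to 0.948) in WT CD8, 0.954 in KO spleen CD4 and above 1 in the others. TRBV24, TRBV29, TRBV12-2 and TRBV13-3 were called as given above. TRBV15 at 1.17, TRBV17 at 1.15, TRBV19 at 0.953, TRBV16 at 0.903 and TRBV12-1 at 0.805 were not called, and TRBV26 had 3 nonproductive and 4 productive rows. TRBV1, used by some invariant T cells, had a ratio of 0.950, TRBV2 of 0.802 and TRBV14 of 1.10, none of them called. TRBV12-1 was called lower at 0.739 without possible copies and at 0.611 with at least 2 reads, and TRBV16 at 0.697 with at least 2 reads. Leaving out 1 library brought a call for 4 of the segments named here: TRBV14 at 1.42 and TRBV2 at 0.641 without WT CD8, TRBV2 at 0.747 without KO CD8, and TRBV12-1 at 0.719 and TRBV15 at 1.27 without KO lung CD4. No row was listed under TRBV31, so its joins, if present, are under other names.

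Of 12 TRBJ segments tested, 3 were called (25%), TRBJ1-1, TRBJ1-3 and TRBJ1-4, and all were lower among nonproductive rows. TRBJ1-1 had a ratio of 0.701 (0.600 to 0.820), TRBJ1-3 of 0.682 (0.557 to 0.836) and TRBJ1-4 of 0.705 (0.577 to 0.861). TRBJ1-1 was not called with at least 2 reads, at 0.830. TRBJ1-2 was called higher at 1.32 without WT CD8, and TRBJ1-6 lower at 0.763 without KO CD8. The TRBJ1 cluster, which lies upstream of TRBD2, held 20.8% of nonproductive and 30.2% of productive rows in WT CD8, 29.6% and 34.7% in KO CD8, 30.2% and 34.7% in KO spleen CD4, 35.1% and 37.3% in KO lung CD4, and 24.3% and 30.6% in Tregs. The ratio was 0.784 (0.732 to 0.840), and every library lay below 1. It was no longer past 0.8 without possible copies (0.846), with at least 2 reads (0.836) or without WT CD8 (0.863). TRBJ2-1 (1.21), TRBJ2-3 (1.15) and TRBJ2-7 (1.11) were above 1 and not called. TRBJ2-6, a pseudogene, appeared in 5 nonproductive rows and no productive row, all of them one sequence, once in each library.

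Among rows joined to a TRBJ2 segment with a D listed, TRBD2 was named in 67.1% of nonproductive and 62.1% of productive rows in WT CD8, 66.1% and 60.4% in KO CD8, 72.0% and 62.3% in KO spleen CD4, 63.6% and 59.3% in KO lung CD4, and 57.4% and 55.8% in Tregs. The nonproductive share was the higher one in 5 of 5 libraries, at a ratio of 1.08 (1.03 to 1.12), which is short of the size for a call. It was 0.988 (0.928 to 1.05) with at least 2 reads and 1.01 (0.960 to 1.06) without possible copies, both with 1 inside the interval. TRBD1 was the lower one in 5 of 5, at 0.882 (0.820 to 0.949). TRBD2 cannot join TRBJ1 segments by ordinary deletion, and it was listed with them in 22 nonproductive and 190 productive rows, so some of the listed D names may be wrong.

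The frame in which TRBD1 is read differed between the sets. TRBD1 can be read through its middle as Thr, as Asp-Arg or as Gln, depending on the bases before it. Over rows of regular form that hold the middle of TRBD1, the Asp-Arg frame took 31.0% of nonproductive and 27.0% of productive rows in WT CD8, 47.4% and 26.0% in KO CD8, 66.7% and 22.9% in KO spleen CD4, 35.7% and 26.7% in KO lung CD4, and 41.0% and 26.8% in Tregs. The nonproductive share was the higher one in each library, although in KO spleen CD4 it came from 24 rows. Pooled, it was 141 of 372 nonproductive rows, or 37.9% (33 to 43.0), and 1253 of 4703 productive rows, or 26.6% (25.4 to 27.9), a ratio of 1.42 (1.24 to 1.64). The Thr frame had a ratio of 0.854 (0.736 to 0.991) and the Gln frame one of 0.839 (0.712 to 0.989). Productive rows thus held a smaller share of joins in this frame. By library, the interval of the Asp-Arg ratio holds 1 in WT CD8 (0.910 to 1.45) and KO lung CD4 (0.917 to 1.95), and leaves it out in the others. The frame was counted from the start of the CDR3, and the sets are themselves defined by frame. Part of the difference may follow from that definition, which was not tested. The Asp-Arg ratio was 1.46 without possible copies and 1.39 with at least 2 reads, where 4 of 5 libraries were higher. For TRBD2, the Thr frame had a ratio of 1.19 (1.04 to 1.37), the Asp-Trp frame of 0.887 (0.774 to 1.02) and the Leu frame of 0.966 (0.841 to 1.11).

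**Figure D3:**
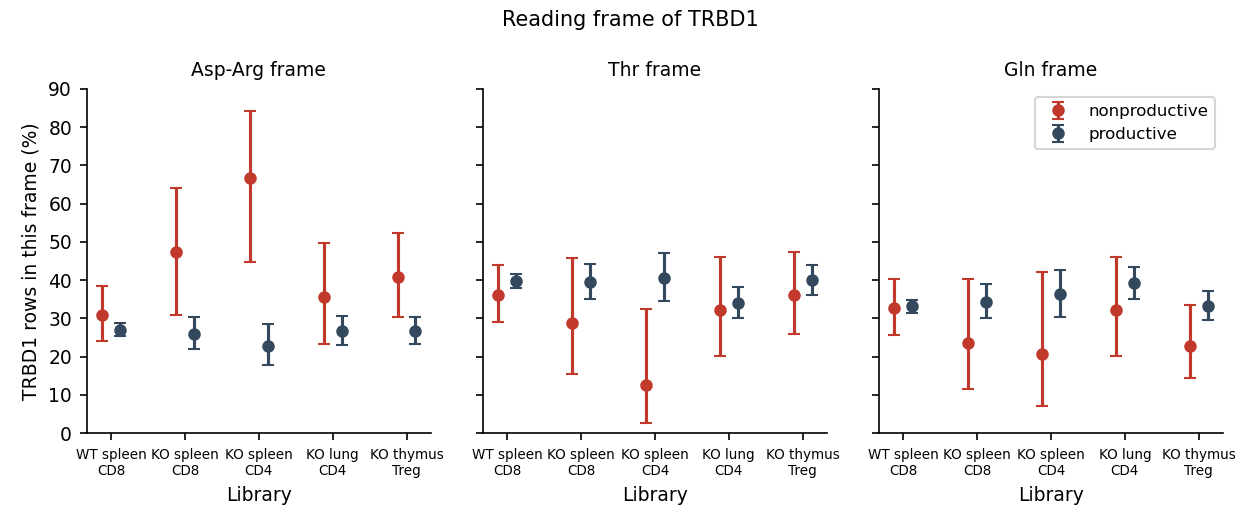
Share of rows with TRBD1 (vertical axis, percent) read in the Asp-Arg, Thr and Gln frames in each library (horizontal axis), for nonproductive and productive rows. Points are shares with 95% Clopper-Pearson intervals; in the Asp-Arg panel the nonproductive point is above the productive one in 5 of 5 libraries, 37.9% against 26.6% when pooled.

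Long CDR3s took a larger share of nonproductive than of productive rows, and nonproductive rows held more inserted bases. The SD of CDR3 length within a library was 5.34 to 7.77 bases in nonproductive and 4.04 to 4.47 in productive rows. Their lengths ran from 13 to 89 bases with a median of 41 (quartiles 37 and 44); the longest inside the cap had 89 bases and the shortest outside it 91. CDR3s over 48 bases made up 4.49% of nonproductive and 1.15% of productive rows in WT CD8, 8.84% and 1.26% in KO CD8, 7.92% and 0.49% in KO spleen CD4, 5.21% and 0.57% in KO lung CD4, and 11% and 1.64% in Tregs. The nonproductive share was higher in each, at a pooled ratio of 5.83 (4.83 to 7.03). With at least 2 reads the shares were 1.99% and 0.869% in KO CD8 and 2.21% and 0.427% in KO spleen CD4. Each of these nonproductive shares came from 3 rows. In that setting they were 3.13% and 1.13% in WT CD8, 3.02% and 0.486% in KO lung CD4, and 8.82% and 1.54% in Tregs. Over rows of regular form, those that start with a Cys codon and have at least 24 bases, the pooled ratio was 5.36 (4.38 to 6.56). For CDR3s of at most 33 bases the ratio was 0.761 (0.663 to 0.873) over all rows and 0.639 (0.547 to 0.746) over regular rows. All productive lengths are multiples of 3 and out-of-frame lengths are not, so these limits do not cut both sets at the same length. Part of the ratios for long and short CDR3s is thus set by how the sets are defined, and its size was not tested. Mean length differed by 0.67 ± 0.39 bases (SD, n = 5 libraries), and the sign turned to -0.141 bases with rows of at least 2 reads.

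Mean inserted bases per row, nonproductive and productive, were 2.34 and 1.75 in WT CD8, 4.02 and 1.69 in KO CD8, 3.27 and 1.71 in KO spleen CD4, 2.65 and 1.76 in KO lung CD4, and 4.10 and 2.75 in Tregs. Nonproductive rows had the more inserted bases in 5 of 5 libraries, by 1.34 ± 0.668 bases (SD, n = 5; exact sign-flip test, two-sided p = 0.0625, the smallest that 5 libraries allow). These libraries come from 4 mice, so the 5 differences are not all independent. Median inserted bases, nonproductive and productive, were 1 and 1 in WT CD8, KO CD8 and KO lung CD4. They were 2 and 1 in KO spleen CD4, and 3 and 2 in Tregs. Over rows with a D listed the excess was 1.06 bases, with 0.734 ± 0.364 at the V-D join and 0.33 ± 0.18 at the D-J join. With or without a D listed, the excess was 0.312 bases with at least 2 reads, 0.881 over rows of regular form and 1.62 without possible copies. Rows with at least 18 inserted bases, a limit chosen after seeing the data, were 1.37% of nonproductive and 0.0712% of productive rows in WT CD8, 9.89% and 0.623% in KO CD8, 6.32% and 0 of 1501 (an interval of up to 0.245%) in KO spleen CD4, 3.51% and 0.101% in KO lung CD4, and 3.54% and 0.265% in Tregs. The share of the excess that these rows hold was not tested. D bases kept differed by 0.287 ± 0.123 and were the higher in nonproductive rows in 5 of 5 libraries. J bases trimmed differed by 0.265 ± 0.322 and V bases trimmed by 0.0974 ± 0.26 bases, each less than its SD over libraries. Compared within each listed segment, nonproductive rows were the higher in 5 of 5 libraries for all 3 measures. The differences were 0.325 ± 0.148 V bases trimmed, 0.272 ± 0.302 J bases trimmed and 0.139 ± 0.137 D bases kept. Over rows of regular form the within-segment difference in J bases trimmed was -0.0018 in WT CD8, and that in V bases trimmed 0.0298 in Tregs. With at least 2 reads, and not within segments, the differences were 0.0013 V bases trimmed, -0.0021 J bases trimmed and 0.197 D bases kept. Trimming was counted from the longest listed end of a segment, since no germline sequence was at hand. Rows whose V part ran past that end, or whose segment had none, were left out of V bases trimmed. In KO lung CD4 this left 342 of 364 nonproductive and 3093 of 3157 productive rows. V bases kept, which need no such end, differed within segments by -0.285 ± 0.278 bases. In KO lung CD4 that difference was 0.0182, with nonproductive rows the higher.

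The share of joins with no inserted base set the Treg library apart from the others, and in both sets alike. Among rows with a D listed it was 21.0% (16.9 to 25.5) of nonproductive and 26.5% (24.8 to 28.3) of productive rows in Tregs. It was 51.5% (42.6 to 60.4) and 59.6% (56.5 to 62.6) in KO spleen CD4, 61.6% and 60.2% in KO lung CD4, 52.2% and 61.4% in KO CD8, and 43.5% and 51.0% in WT CD8. The ratio of Treg to spleen CD4 was 0.407 (0.314 to 0.528) in nonproductive rows and 0.444 (0.409 to 0.483) in productive rows, and the productive ratio divided by the nonproductive one was 1.09 (0.831 to 1.43). KO against WT spleen CD8 gave 1.20 (1.03 to 1.39) and 1.20 (1.16 to 1.26). Within libraries the nonproductive share was lower at a pooled ratio of 0.875 (0.829 to 0.923), with KO lung CD4 the exception at 1.02. Over all rows, with or without a D listed, the pooled ratio was 0.903 (0.853 to 0.956); it was 0.972 (0.904 to 1.05) with at least 2 reads and 0.930 (0.858 to 1.01) without WT CD8, and both of these intervals hold 1. Each library here is a different sort, and the Treg library is the only one from the thymus, so cell type, organ and mouse cannot be told apart.

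**Figure D4:**
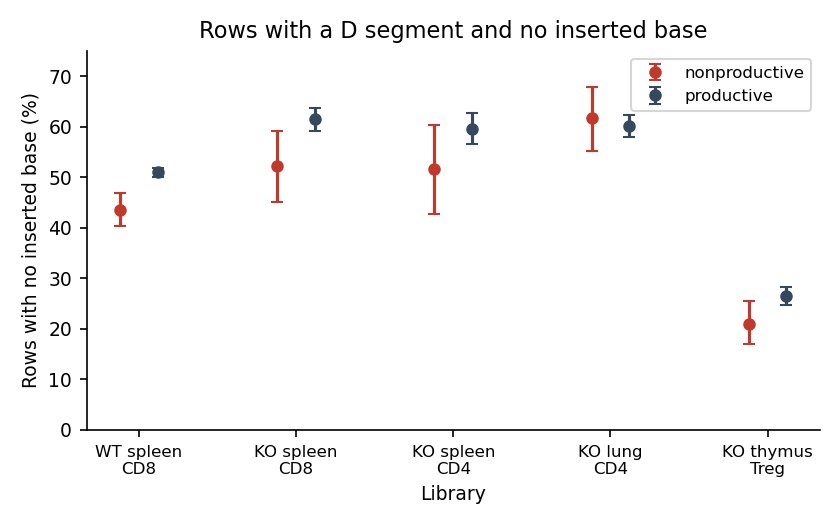
Share of rows with a D segment and no inserted base (vertical axis, percent) in each library (horizontal axis), nonproductive and productive rows. Points are shares with 95% Clopper-Pearson intervals; Tregs lie at 21.0% and 26.5%, and all other libraries above 43%.

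The comparison of CD8 with CD4 cells of KO spleens showed V preferences in productive rows that nonproductive rows did not carry to the same degree. Between these libraries 14 of 21 segments were called in productive rows (66.7%), 7 higher and 7 lower in CD8, and 2 of 21 in nonproductive rows (9.52%), where 294 and 202 rows give less precision. The 7 segments higher in productive CD8 rows were TRBV12-1, TRBV12-2, TRBV13-1, TRBV14, TRBV16, TRBV17 and TRBV29. They held 46.1% of productive CD8 and 23.6% of productive CD4 rows, values that chose them. In nonproductive rows, which did not, they held 33.3% (28.0 to 39.0) in CD8 and 28.7% (22.6 to 35.5) in CD4, a ratio of 1.16 (0.885 to 1.52). The 7 segments lower in productive CD8 rows, TRBV2, TRBV3, TRBV5, TRBV15, TRBV19, TRBV22 and TRBV24, held 24.5% of productive CD8 and 44.6% of productive CD4 rows. In nonproductive rows they held 35.4% (29.9 to 41.1) and 35.1% (28.6 to 42.2), a ratio of 1.01 (0.789 to 1.28).

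The 3 libraries that played no part in choosing these segments were read for the same segment sets. In WT spleen CD8, from another mouse, the CD8-higher segments held 37.6% (34.9 to 40.4) of nonproductive and 46.5% (45.8 to 47.3) of productive rows, a ratio of 0.808 (0.750 to 0.870). Its CD8-lower segments held 30.5% and 24.3%, a ratio of 1.26 (1.15 to 1.37). Among these segments TRBV24 held 4.16% and 0.271% there, and TRBV22 4.40% and 0.924%. Both were called higher in the pooled V usage above. Over the libraries most TRBV22 rows began Cys-Ala-Trp, so their V name may be wrong. The other members had ratios in that library of 1.41 for TRBV15, 1.22 for TRBV2, 1.08 for TRBV5, 0.921 for TRBV19 and 0.488 for TRBV3. The set without TRBV24 and TRBV22 was not tested. KO lung CD4 comes from mouse 617, as does KO spleen CD8, whose productive rows helped to choose the segments. In KO lung CD4 the CD8-higher segments held 28.5% and 22.5%, a ratio of 1.27 (1.06 to 1.51), and the CD8-lower segments 38.6% and 44.9%, a ratio of 0.860 (0.751 to 0.984). In Tregs the ratios were 1.01 (0.855 to 1.19) and 0.907 (0.809 to 1.02), whose intervals hold 1. Without possible copies the WT CD8 ratios were 0.697 and 1.36 and the lung ratios 1.27 and 0.863. With at least 2 reads the WT CD8 ratios were 0.625 and 1.43, and the lung ratios 1.20 and 0.890, whose 95% intervals hold 1.

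**Figure D5:**
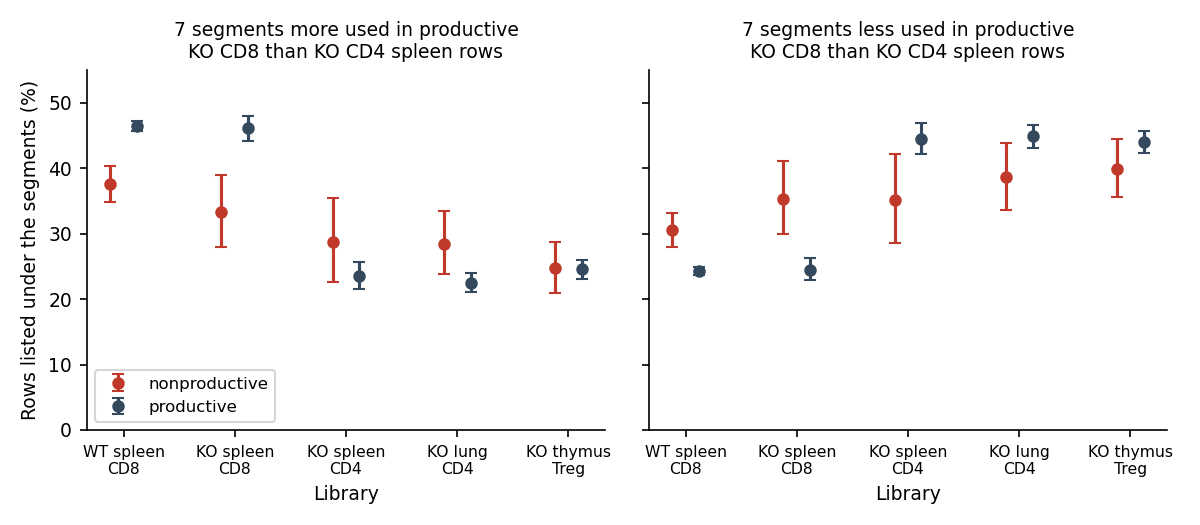
Share of rows (vertical axis, percent) listed under the 7 segments more used (left) and the 7 less used (right) in productive rows of KO spleen CD8 than of KO spleen CD4, in each library (horizontal axis). Points are shares with 95% Clopper-Pearson intervals; productive rows run from 22.5% to 46.5% on the left and nonproductive rows from 24.7% to 37.6%.

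KO against WT spleen CD8 gave 7 of 21 in nonproductive rows (33.3%) and 2 of 21 in productive rows (9.52%). In nonproductive rows TRBV10, TRBV15, TRBV19 and TRBV24 were higher and TRBV4, TRBV12-1 and TRBV14 lower in KO; TRBV4 held 4.76% in KO and 9.79% in WT, a ratio of 0.487 (0.284 to 0.834), and TRBV24 7.14% and 4.16%, a ratio of 1.72 (1.05 to 2.81). For none of the 21 segments was the productive ratio divided by the nonproductive ratio called. KO lung against spleen CD4 gave 1 of 21 in nonproductive (4.76%) and 2 of 21 in productive rows (9.52%), and Treg against KO spleen CD4 2 of 21 in each (9.52%). The TRBJ1 cluster was higher in KO than in WT CD8 in both sets, by a ratio of 1.42 (1.16 to 1.75) in nonproductive and 1.15 (1.08 to 1.22) in productive rows.

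Nonproductive sequences were seldom shared, and so were productive ones. Sharing depends on list length, and the nonproductive lists are the shorter ones, so the shares below do not tell the 2 sets apart. Of 2539 distinct nonproductive sequences 2523, or 99.4%, occurred in 1 library, 7 in 2, 1 in 3 and 8 in all 5; of 25949 productive sequences 96.2% occurred in 1 library and 4 in all 5. The libraries from mouse 617, KO spleen CD8 and KO lung CD4, shared 12 nonproductive sequences (4.08% and 3.29% of each list) and 206 productive ones (8.10% and 6.53%). KO spleen CD8 shared 8 and 48 with KO spleen CD4 of another mouse, and 10 and 320 with WT spleen CD8, also of another mouse and the longest list, where the 320 were 12.6% of the productive KO CD8 list. Of the 8 nonproductive sequences in all libraries 2 had the regular form. All 8 are printed next, since they are the sequences common to every mouse. Capitals mark the listed J part, which in the first and the seventh takes up the whole sequence.

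TRBV4-TRBJ2-1, 637 to 1246 reads per library: TGCTGAGCAGTTCTTC
TRBV17-TRBJ2-7, 63 to 283 reads: tgtGCTCCTATGAACAGTACTTC
TRBV5-TRBJ2-2, 34 to 97 reads: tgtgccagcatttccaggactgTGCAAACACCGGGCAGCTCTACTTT
TRBV30-TRBJ1-2, 15 to 71 reads: tgatgTGCAAACTCCGACTACACCTTC
TRBV19-TRBJ2-6, 8 to 68 reads: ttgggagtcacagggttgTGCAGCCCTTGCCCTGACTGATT
TRBV19-TRBJ2-1, 1 to 21 reads: tgtgTAACTATGCTGAGCAGTTCTTC
TRBV12-2-TRBJ2-1, 4 to 16 reads: TGAGCAGTTCTTC
TRBV24-TRBJ1-6, 1 to 2 reads: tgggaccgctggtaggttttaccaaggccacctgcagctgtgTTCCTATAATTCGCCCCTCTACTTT

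The first was the most-read nonproductive row of every library, with 637 reads in WT CD8, 947 in KO CD8, 687 in KO spleen CD4, 1245 in KO lung CD4 and 1246 in Tregs. It is 16 bases long and its listed J part covers all 16, so the V name given to it rests on no base outside the J part. The TRBV17-TRBJ2-7 sequence was among the 3 most-read in each library. Counting rows keeps these sequences to 1 row each.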

How the data were processed

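Clonotype tables of 5 TCRβ libraries were used; the other 37 samples of the series were not analysed here. Per the labels' protocols, RNA of sorted cells went into the SMARTer kit for mouse TCR chains. Per the submitters' processing notes, the build was mm10. Which aligner, clonotype caller and error correction were run is not given in the sources used here. Per the file headers, each deposited table holds a raw read count per CDR3 sequence, a fraction equal to the count over the file's total, and the positions of segment ends in bases. Reads carry no stated molecular identifier, so rows and not reads were counted.

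Segment ends were read from the listed positions. Where no D was listed, all bases between V and J counted as inserted. All 44 segment names were found in RefSeq, build GRCm38.p6. Shares carry Clopper-Pearson 95% intervals, ratios log intervals, pooled ratios Mantel-Haenszel intervals (Python 3.11.15, SciPy 1.17.1, pandas 2.3.3), tested on simulated data. Segments named were those called, the superantigen, NKT and pseudogene segments, and the most-read or most-shared sequences. The members, lists and rules were chosen with earlier results of these data known. Added after seeing the data were the D frames, the segment sets in other libraries, the Cys-Ala-Trp split and the TRBV4 and TRBV24 exclusions. Alternatives were at least 2 reads, no possible copies, out-of-frame or stop rows alone, regular CDR3s, a listed D, reads as weights, no length cap and each library left out.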

Additional observations from a re-analysis of the deposited data

Results flagged for a closer look

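For 8 of 81 segment ratios that could be compared between libraries, the productive ratio divided by the nonproductive ratio had a 95% interval that left out 1; at that interval about 1 in 20 would do so by counting error alone, and no adjustment was made. In KO spleen CD8 against KO spleen CD4 this quotient was 2.44 for TRBV13-1, 7.19 for TRBV14, 0.265 for TRBV15, 0.255 for TRBV2 and 0.253 for TRBV24. TRBV14 held 2.04% of nonproductive CD8 and 5.94% of nonproductive CD4 rows (6 and 12 rows), in the direction opposite to its productive rows. TRBV15 held 8.84% and 3.96% of nonproductive rows, again opposite to its productive ratio of 0.591. In KO lung against KO spleen CD4 the quotient was 0.165 for TRBV12-1, from 11 and 2 nonproductive rows. In KO thymus Treg against KO spleen CD4 it was 2.52 for TRBV14 and 2.18 for TRBV20. Outside the rows described, 810 nonproductive rows were longer than the cap of 90 bases, 189 in WT spleen CD8, 134 in KO spleen CD8, 109 in KO spleen CD4, 142 in KO lung CD4 and 236 in KO thymus Treg.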

How the results depend on the processing

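Values by library are in the order WT spleen CD8, KO spleen CD8, KO spleen CD4, KO lung CD4, KO thymus Treg. The nonproductive share was 3.82%, 6.79%, 8.83%, 7.98% and 9.65% with at least 2 reads; 2.20%, 1.58%, 2.31%, 2.83% and 3.79% of the reads of rows up to 90 bases; 7.81%, 13.9%, 15.3%, 13.1% and 16.2% with no length cap; and 0.764%, 0.819%, 0.915%, 1.10% and 0.728% for stop-codon rows alone. Without possible copies it was 5.93% in WT CD8 and 10.8% in Tregs, and with out-of-frame rows alone 6.35% in WT CD8. The TRBJ1 cluster ratio of 0.784 was 0.836 with at least 2 reads and 0.846 without possible copies. The mean length difference turned to -0.141 bases with at least 2 reads, -0.729 for stop-codon rows alone and -6.43 with reads as weights. The inserted-base difference was 0.312 with at least 2 reads and 0.569 for stop-codon rows alone. With stop-codon rows alone 3 V segments were called, and the ratio was 0 for TRBV10, 0.629 for TRBV22, 1.55 for TRBV29 and 1.09 for TRBJ1-3. With reads as weights no interval was computed, and 18 V and 8 J segments had a ratio past the size limits for a call. In that setting V bases trimmed differed by 2.97, J bases trimmed by -0.348 and D bases kept by 0.0732. Segments called between libraries in nonproductive rows were 5 with at least 2 reads and 1 for stop-codon rows alone, against 12 of 84 ratios in the main setting. These sets are smaller and give less precision, with 15 to 125 stop-codon rows per library. The cause was not tested.

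Leaving out each library in turn, 10 to 13 V segments and 3 to 4 J segments were called. The TRBJ1 cluster ratio ran from 0.753 to 0.863, TRBD2 with TRBJ2 from 1.07 to 1.09 and the ratio for rows with no inserted base, over all rows (0.903), from 0.875 to 0.930. Differences ran from 0.538 to 0.762 bases for length, 1.10 to 1.53 for inserted bases, 0.248 to 0.317 for D bases kept, 0.143 to 0.356 for J and 0.0129 to 0.158 for V bases trimmed. No paired analysis was possible because each group has 1 library, so that no groups compared share more than 1 mouse; nonproductive and productive rows were compared within each library. The smallest nonproductive set had 202 rows, in KO spleen CD4, and limits the precision there.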
